A study of Schizosaccharomyces pombe with 2 samples.

Results

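DNA flanking the replication origin zones of fission yeast chromosome arms, which forks leaving the zones would copy next, is described here as tracks. They are set by distance from a zone alone, and the movement of forks was not measured. A zone was a stretch of at least 3 tiles in a row in which BrdU over input, smoothed over 2.5 kb to either side and averaged over both strains, was at least 2-fold above the array median (log2 of 1). Zones under 1 kb apart were merged. A track was the DNA 1 to 10 kb outside 1 edge of a zone, in no zone itself, and a tile in reach of 2 zones went to the nearer one. The outer 200 kb of each chromosome, the surroundings of the 3 centromeres and the mating-type region were left out. This gave 196 zones with a median length of 7.8 kb (0.9 to 38.4 kb) and 370 tracks out of 392 possible sides. The tracks held 9368 of the 35972 arm tiles (26.0%), or 2810.4 kb.

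The study mapped newly made DNA in Schizosaccharomyces pombe by BrdU immunoprecipitation on 2 Agilent two-colour tiling arrays, 1 for wild-type and 1 for sap1-1, with tiles 300 bp apart. The strain called wild-type carried cdc10-v50, and the sap1-1 strain carried cdc10-v50 and sap1-1, both in the background labelled 972h, with a thymidine kinase gene on the nmt1 promoter (Pnmt1-TK) and a human nucleoside transporter on the adh1 promoter (Padh1-hENT). Cells grown at 26 °C were arrested for 4 h at 35 °C and let go at 26 °C into 10 mM hydroxyurea and 200 µM BrdU, and azide (0.1%) stopped them. Each strain has 1 array, so there was no test, no difference has a replicate check, and strain, culture and array cannot be told apart. Every SD and SE below covers scatter over tiles or tracks of these arrays. Neighbouring tiles share DNA fragments, so SEs over tiles are too small.

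Replication forks start in pairs at origins and move away in opposite directions. Hydroxyurea inhibits ribonucleotide reductase, so forks run short of deoxynucleotides and stall within kilobases of the origin, and the Cds1 checkpoint keeps them stable. BrdU replaces thymidine in the new strands, and its level at a distance from an origin, averaged over cells, falls with the share of cells whose forks had come that far. Fission yeast origins are AT-rich intergenic stretches rather than a fixed sequence. Sap1 is an essential DNA-binding protein that blocks forks in the rDNA and at the long terminal repeats (LTRs) of Tf2 retrotransposons, and cdc10 encodes a subunit of the G1/S transcription factor, used for synchrony.

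Tracks lay between the zones and the rest of the arms on both arrays. Values are log2 of BrdU over input with each array's median at 0. In wild-type the zones averaged 1.704 ± 0.69 (SD over tiles), the tracks 0.20 ± 0.76 and the 19639 arm tiles beyond 10 kb from any zone -0.67. In sap1-1 the same 3 classes averaged 1.44 ± 0.92, -0.01 ± 1.06 and -0.69. This order is built into the rule, which picked zones on the mean of both arrays and tracks by their place next to them. At the inner limit of the rule the tiles 0.75 kb outside an edge, left out, stood on average at 1.06 (wild-type) and 0.80 (sap1-1), and those at 1.05 kb, included, at 0.97 and 0.76. At the outer limit the tiles at 9.75 kb averaged -0.28 and -0.34 and those at 10.05 kb -0.26 and -0.36, so neither limit fell on a jump. Cy5 signal was well above background on all but 3 track tiles (sap1-1), Cy3 signal on all, and none was saturated. The difference between neighbouring track tiles had an SD of 0.57 in wild-type and 0.97 in sap1-1, so sap1-1 values were rougher.

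BrdU fell with distance from the zone on both arrays, and the wild-type array started higher. The SE of a 1 kb bin, here and below, is the SD over its tiles divided by the square root of its number of tracks. It is not an SE of track means. Wild-type tiles 1 to 2 kb outside an edge averaged 0.80 ± 0.03 (SE, 367 tracks), those at 5 to 6 kb 0.11 ± 0.04 and those at 9 to 10 kb -0.24 ± 0.04. The sap1-1 averages at the same distances were 0.58 ± 0.05, -0.10 ± 0.06 and -0.33 ± 0.07. The drop over the length of a track was thus 1.05 in wild-type and 0.91 in sap1-1, and both arrays were still above their own level beyond 10 kb (-0.67 and -0.69) at its far end. A straight line through the 9 averages of 1 kb fell by 0.12 per kb in wild-type and by 0.08 per kb in sap1-1. The wild-type profile reached the array median in the bin at 7 to 8 kb. The sap1-1 profile was first below it at 2 to 3 kb, rose above it again and stayed below from 5 kb outwards.

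**Figure D1:**
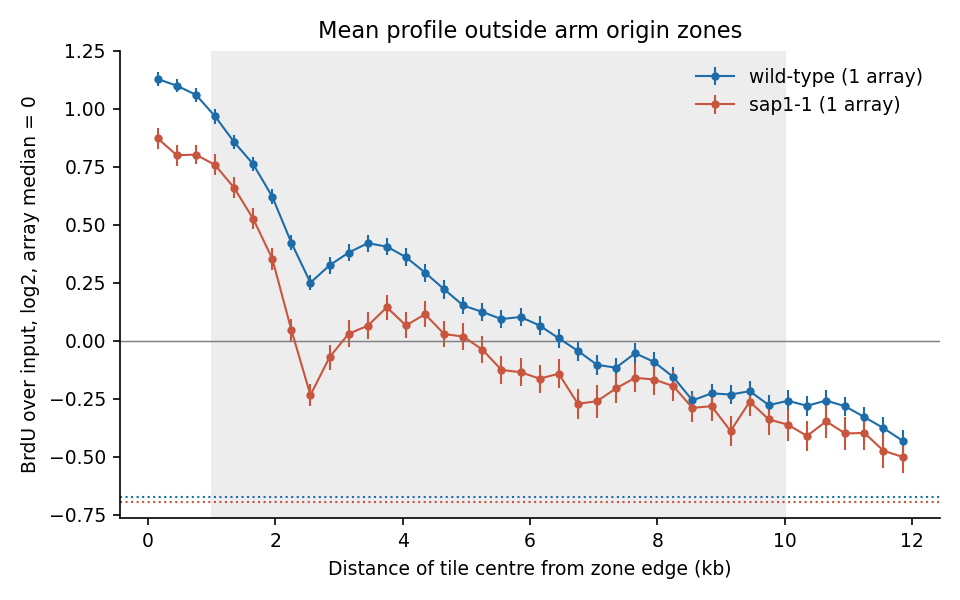
Mean log2 BrdU over input (vertical axis, array median at 0) against the distance of a tile from the zone edge in kb, for the wild-type and sap1-1 arrays, with SE over tracks as bars. The grey band marks the tracks and the dotted lines the level of each array beyond 10 kb. Wild-type fell from 0.97 at 1.05 kb to -0.28 at 9.75 kb and sap1-1 from 0.76 to -0.34, both with a dip at 2.55 kb.

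The dip near 2.5 kb lies at the reach of the window that was used to call zones. At 2.55 kb wild-type averaged 0.25 and sap1-1 -0.23, and at 3.75 kb they were back at 0.41 and 0.14. With zones called on windows of 1.5 kb to either side the lowest tiles lay at 1.65 kb (0.37 and -0.16), and with 3.5 kb at 3.45 kb (0.20 and -0.33). Tiles farther out stood at 0.41 and 0.12 (2.85 kb, 1.5 kb window) and at 0.24 and -0.01 (4.65 kb, 3.5 kb window). The lowest tile was sought only near the reach of each window. Its position thus had to follow the window and cannot show that the dip moved. Values there depend on the rule. Input was higher at 2.55 kb, by 0.37 in wild-type and 0.39 in sap1-1 against the median, and GC content was 39.2% against 37.0% over all track tiles. After GC correction wild-type stood at 0.44 at 2.55 kb and again at 3.75 kb, with no dip, while sap1-1 stood at -0.04 and 0.16. The parts of GC content and of the window in the dip were not tested. Lines fitted from 3 kb outwards, past the lowest tile of the dip, fell by 0.11 per kb in wild-type and by 0.07 per kb in sap1-1. They are not fully clear of the dip. From 3.15 to 3.75 kb sap1-1 still rose from 0.03 to 0.14, and wild-type went from 0.38 to 0.41.

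The levels were also put on a scale that does not depend on where the arrays are centred, as the percent of each array's own span from its level beyond 10 kb to its zone level. Wild-type tracks stood at 62.1% of the span at 1 to 2 kb, 45.2% at 3 to 4 kb, 32.8% at 5 to 6 kb and 18.1% at 9 to 10 kb. The sap1-1 tracks stood at 59.5%, 36.2%, 27.9% and 17.1%. The arrays differed most at 2 to 3 kb (42.3% and 28.5%), where the dip lies, and least from 7 kb outwards, where sap1-1 was the higher array in the bin at 8 to 9 kb (20.6% against 19.3%).

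Zones called on 1 array alone left the other array out of the choice, though both arrays share probes and base composition. Zones from wild-type alone (200 zones, 388 tracks) were flanked on the sap1-1 array by averages of 0.29 at 1 to 2 kb, -0.12 at 5 to 6 kb and -0.44 at 9 to 10 kb. Zones from sap1-1 alone (211 zones, 391 tracks) were flanked on the wild-type array by 0.89, 0.15 and -0.17. Each array thus showed falling flanks around zones that the other had picked. As a percent of the span, sap1-1 went from 50.4% to 13.4% around wild-type zones, where wild-type itself went from 59.3% to 16.0%. Around sap1-1 zones wild-type went from 65.6% to 19.8% and sap1-1 from 61.2% to 18.8%. In both settings wild-type was the higher array in all 9 bins on this scale.

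**Figure D2:**
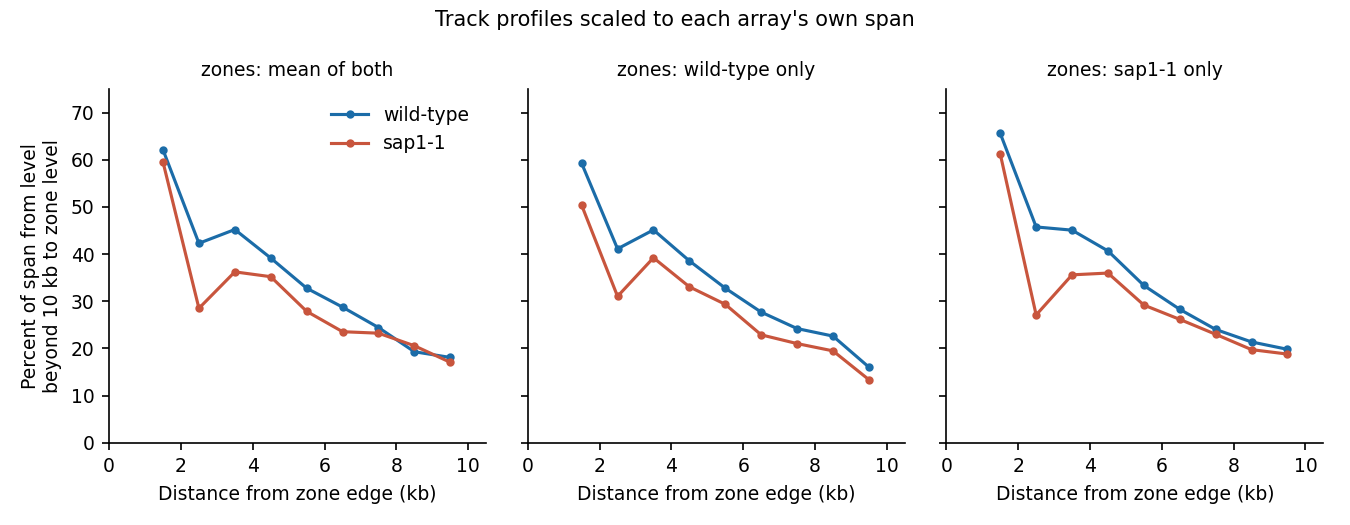
Track profiles in 1 kb bins (horizontal axis, distance from the zone edge in kb) as a percent of each array's span from its level beyond 10 kb (0%) to its zone level (100%), with zones called on the mean of both arrays, on wild-type alone and on sap1-1 alone. The wild-type line lies above the sap1-1 line in every bin of the last 2 panels and below it at 8 to 9 kb in the first.

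Set side by side, the sap1-1 array was lower than wild-type over the tracks by a small amount. The mean sap1-1 minus wild-type difference was -0.21 (SD 0.36 over 351 tracks of at least 5 tiles). Of these tracks 256 (72.9%) were lower in sap1-1, while 60.8% of all 9 kb arm windows were lower. Of the single track tiles 58.1% were lower, against 53.9% of arm tiles. Tiles at least 2-fold lower made up 16.5% of track tiles (1550), beside 16.1% of arm tiles, so large single-tile losses were about as common as elsewhere. Tiles at least 2-fold higher made up 6.94% (650), beside 10.8% of arm tiles. Arm tiles beyond 10 kb differed by -0.02 and zones by -0.26, so the tracks stood at -0.18 relative to the DNA beyond them and at 0.06 relative to the zones. These 3 values show where the difference lay but have no test, since the classes were set with both arrays. Centring the arrays on the mode of their ratios in place of the median took the track difference to -0.81 and left it at -0.19 relative to the DNA beyond 10 kb.

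The difference was larger near the zones than far from them. It averaged -0.23 ± 0.04 (SE) at 1 to 2 kb, -0.42 ± 0.04 at 2 to 3 kb and -0.32 ± 0.05 at 3 to 4 kb. From 4 to 7 kb it was -0.20 or -0.21 in each bin. From 7 kb outwards it lay between -0.11 and -0.04 with SEs of 0.05 to 0.06, and between 48.6% and 52.4% of tiles in these bins were lower in sap1-1. At the far ends the 2 arrays thus differed by less than 2 SE. The bin at 2 to 3 kb holds the dip, where sap1-1 was 0.48 below wild-type on the log2 scale at 2.55 kb.

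Tracks varied far more among themselves than the arrays did on average. Over the 293 tracks of at least 20 tiles, wild-type means ran from -1.08 to 1.09 with a median of 0.20, and 209 were above the array median. The sap1-1 means ran from -1.19 to 0.98 with a median of -0.05, and 131 were above it. Across these tracks the 2 arrays correlated with r = 0.50 (Spearman 0.48), a description over tracks that share the 2 arrays and base composition. The difference ran from -1.16 to 0.79, with quartiles at -0.43 and 0.02. In 216 of the 293 it was below 0, beside 60.8% of all 9 kb arm windows. It was at or below -0.5 in 50 and at or above 0.5 in 8, limits at which the share of arm windows was not taken. By the 2-fold limit 3 tracks were lower (1.58% of all 9 kb arm windows were) and 0 higher (0.0% of windows).

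**Figure D3:**
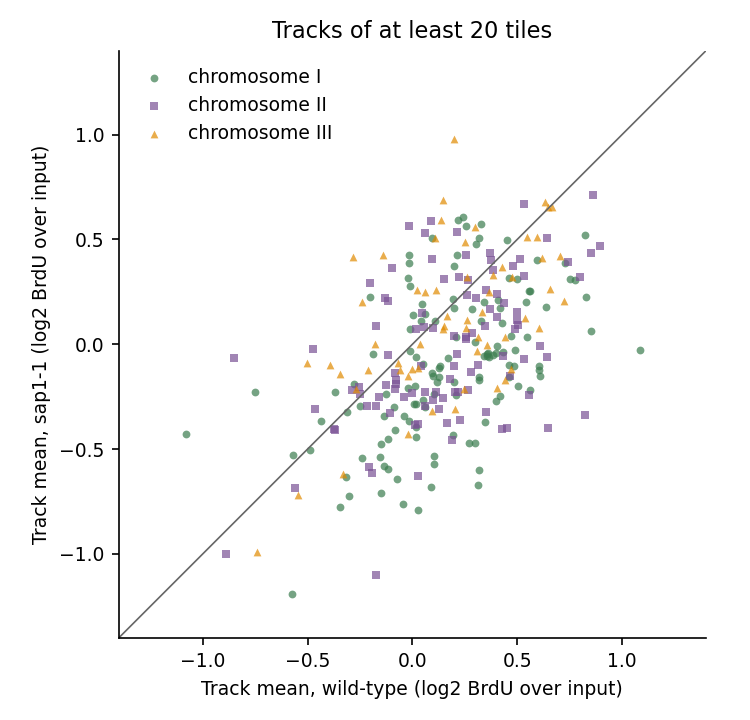
Mean log2 BrdU over input of each of the 293 tracks of at least 20 tiles, wild-type on the horizontal and sap1-1 on the vertical axis, by chromosome, with the line of equal values. The 216 tracks lower in sap1-1 lie below the line, and the tracks of chromosome III lie closer to it than those of chromosome I.

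The slope of single tracks is given as a description, since the rule starts each track next to a zone picked on the same arrays and thereby favours a fall. It was negative in wild-type in 271 of the 293 tracks, in sap1-1 in 227 and on both arrays in 222. It was positive on both in 17. The median slope was -0.12 per kb in wild-type (quartiles -0.18 and -0.07) and -0.08 in sap1-1 (-0.15 and -0.01), and wild-type was the steeper array in 189 tracks. Slopes of the 2 arrays correlated with r = 0.62 over the tracks.

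The 3 tracks at least 2-fold lower in sap1-1 lay beside zones of 4.2 to 5.4 kb that were themselves lower there. The first ran over fnx2, mic60 (a subunit of the mitochondrial inner-membrane MICOS complex), ric8 and the small heat-shock gene hsp16 (chromosome II, 2661600 to 2670599, coordinates of the array throughout). Its 30 tiles had a wild-type mean of 0.82 ± 0.59 (SD) and a sap1-1 mean of -0.34 ± 1.004. They differed by -1.16 ± 0.16 (SE), and 29 of them were lower in sap1-1. The 4.2 kb zone beside it had means of 1.81 (wild-type) and 0.73 (sap1-1). Along the track wild-type held 0.67 at 1 to 4 kb, 1.14 at 4 to 7 kb and 0.65 at 7 to 10 kb, with its peak in the middle, while sap1-1 held -0.16, -0.49 and -0.36. The largest gap was at mic60, where 1 tile differed by -3.41.

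The second of them ran from trl1, the tRNA ligase gene, over urh2, bur6 and wip1 to arc5, a subunit gene of the actin-nucleating Arp2/3 complex (chromosome I, 2342100 to 2351099). It was the highest track of all in wild-type, at 1.09 ± 0.70, and averaged -0.03 ± 1.18 in sap1-1 (-1.11 ± 0.19, SE), with 25 of 30 tiles lower. Close to the zone, at 1 to 4 kb, wild-type stood at 1.595 and sap1-1 at -0.10. At 7 to 10 kb the arrays were nearer, at 1.11 and 0.52. The zone itself (5.4 kb) had means of 1.999 and 0.64.

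The third ran over hmt2, a mitochondrial sulfide dehydrogenase gene, tkt1 (transketolase), erv41 and ctu1, for tRNA thiolation (chromosome II, 2582700 to 2591699). Its means were 0.65 ± 0.62 in wild-type and -0.40 ± 0.90 in sap1-1 (-1.05 ± 0.11, SE), with 29 of 30 tiles lower. Wild-type rose away from the zone here, from 0.43 at 1 to 4 kb to 1.08 at 7 to 10 kb, and sap1-1 rose from -0.32 to 0.07. The next zone beyond it lay 25.2 kb away. Next came the track over ppk14, trm12 and trm2 on chromosome I (772200 to 781199; 0.31 and -0.67, difference -0.98 ± 0.18), the last 2 being tRNA methyltransferase genes. The fifth ran from scp1, whose product senses sterols and activates the transcription factor Sre1, to the ESCRT gene vps36 on chromosome II (4005000 to 4013999; -0.17 and -1.10, difference -0.92 ± 0.21). Both fell with distance on both arrays, and sap1-1 reached -2.25 over the last 3 kb of the scp1 track, where wild-type stood at -0.70.

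Of the 4 tracks with the highest difference, 3 were below the array median in wild-type. The highest difference belonged to the track over zfs1 (a zinc-finger mRNA-decay factor), msp1 (mitochondrial fusion), trs31 and sct1 on chromosome II (3478200 to 3487199), with -0.85 ± 0.75 in wild-type and -0.07 ± 1.29 in sap1-1 (0.79 ± 0.15, SE). At 1 to 4 kb it stood at -0.25 in wild-type and 1.08 in sap1-1, and at 7 to 10 kb the arrays were close, at -1.22 and -0.98. The highest sap1-1 track of all ran from knh3 to the malic enzyme gene mae2 on chromosome III (276900 to 285899). It averaged 0.98 ± 0.66 in sap1-1 and 0.20 ± 0.68 in wild-type (0.78 ± 0.10, SE), and only 1 of 30 tiles was lower in sap1-1. On the sap1-1 array it was flat, with 0.91 near the zone and 0.86 at 7 to 10 kb, while wild-type fell from 0.42 to -0.24.

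Like the knh3 to mae2 track, the other 2 of these 4 tracks kept a gap at the far end. The track from gnr1 to the transaldolase gene tal1 (chromosome III, 765600 to 774299) had means of -0.28 and 0.42, with -0.99 in wild-type and 0.23 in sap1-1 over its last 3 kb. The track that starts at the retrotransposon Tf2-8 and runs over pyp2, a phosphatase gene of the stress MAP kinase pathway, emc10 and cid1 (chromosome I, 5194200 to 5203199) was the lowest of all in wild-type, at -1.08 ± 1.10, against -0.43 ± 1.17 in sap1-1. All of these tracks were picked as extremes of 293, so the size of their differences is a description. The difference in input between the arrays stayed within 0.12 in each of the 9 tracks named so far.

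**Figure D4:**
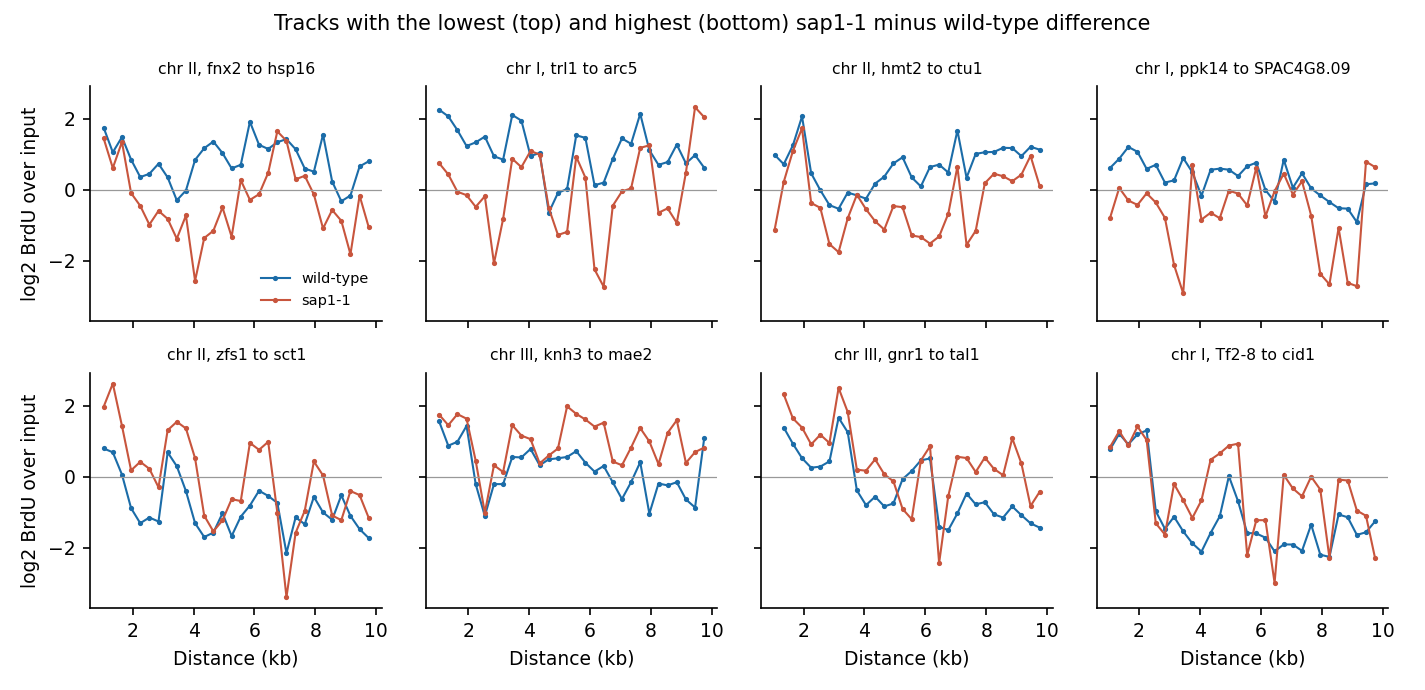
Log2 BrdU over input of single tiles (vertical axis) against distance from the zone edge in kb, for the 4 tracks with the lowest (top) and the 4 with the highest (bottom) sap1-1 minus wild-type difference, named by their first and last genes. In the top left panel 29 of 30 sap1-1 tiles lie below wild-type, and in the knh3 to mae2 panel 1 of 30 does.

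Tracks that kept a high level on both arrays showed little fall. The highest mean of both belonged to the track over egt1, the ergothioneine synthesis gene, and ppr1 (chromosome II, 3925500 to 3934499), at 0.86 ± 0.44 in wild-type and 0.71 ± 0.66 in sap1-1. Wild-type fell from 1.02 to 0.64 along it while sap1-1 rose from 0.31 to 0.93. The track over csc3 and bcp1 (chromosome II, 282000 to 290999) stood at 0.90 and 0.47 beside a zone of 0.9 kb, and that over leu2, sor1 and the Rab gene ypt2 (chromosome I, 4435500 to 4444499) at 0.82 and 0.52. On chromosome III a track over mug174, the signal-recognition-particle gene srp68 and the centrin gene cdc31 (375600 to 382499) stood at 0.67 and 0.65. It rose to 1.91 in wild-type and 1.11 in sap1-1 at its far end, and the next zone lay 15.6 kb away. The track over vid21, sws2, the mating pheromone gene map2, ura6 and the proteasome gene pre10 (chromosome III, 981900 to 990899) stood at 0.63 and 0.68 with its peak in its middle 3 kb (1.14 and 1.23).

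The lowest tracks were below the array median on both arrays. The lowest mean of both was that of the track over SPBPJ4664.02 (chromosome II, 687600 to 696599, 24 tiles), with -0.89 (wild-type) and -0.999 (sap1-1). Beyond 4 kb it was flat, since wild-type held -1.38 and -1.34 over its last 2 stretches of 3 kb and sap1-1 held -1.56 and -1.52. Next came the track over the tropomyosin gene cdc8, pan1 and the translation initiation gene tif302 (chromosome I, 4306200 to 4315199; -0.58 and -1.19), with a GC content of 42.5%. The track over prp28, pup3 and eis1 (chromosome III, 858600 to 867599) averaged -0.74 and -0.99 at 41.4% GC. Tf2-8 to cid1 and scp1 to vps36, given above, were the other 2 of the 5. The steepest falls were over the septin gene spn1 and the kinetochore gene fta1 (chromosome I, 4850400 to 4859399; -0.39 per kb in wild-type and -0.31 in sap1-1), from acr1 to dca7 (chromosome II, 3327000 to 3335999; -0.25 and -0.40), and over sly1, mug24 and hmt1 (chromosome III, 1917000 to 1925999; -0.29 and -0.36). The 3 tracks with the flattest slope on the mean of both arrays, all on chromosome III, ran over ski3 (2211900 to 2220899), from pho843 to mib1 (830100 to 839099), and over npp106, the Hsp70 gene ssa2 and ppe1 (2054400 to 2061899). Their slopes per kb were -0.04, -0.11 and -0.01 (wild-type) against 0.04, 0.11 and 0.01 (sap1-1). Slopes that cancel, or are near 0 on both arrays, are built into a choice on the mean of both.

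Both sides of a zone were compared in the 114 zones with 2 tracks of at least 20 tiles. The left track minus the right averaged -0.04 with an SD of 0.41, and the left was higher in 49 zones. The levels on the 2 sides were unrelated (r = -0.03 over 114 zones). The asymmetry itself was shared by the arrays, since it had the same sign on both in 84 of 114 zones and correlated with r = 0.63. The most unequal zone (chromosome III) had the autophagy kinase gene atg1 on its left (841500 to 850499; 0.33 in wild-type and 0.15 in sap1-1) and the prp28 track on its right (-0.74 and -0.99). In the next the left track over duc1 (351600 to 360599) stood at -0.35 and -0.14 and the right at mug174 at 0.67 and 0.65. In that after it the left track over gsf2 and smp4 (954900 to 963899) stood at -0.02 and -0.43, and the right at vid21 at 0.63 and 0.68. GC content was lower on the higher side in all 3 of these zones, at 35.7% against 41.4%, 35.2% against 37.98% and 37.1% against 40.03%, and its part in the asymmetry was not tested. The sap1-1 minus wild-type difference was negative on both sides in 65 zones, positive on both in 9 and of mixed sign in 40 (r = 0.36 between sides). Of all tracks of at least 20 tiles 73.7% were lower in sap1-1, and of all 9 kb arm windows 60.8%. Unrelated sides would thus often be negative together, and these counts alone do not show that the sides of a zone go together.

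Across tracks, zone height and length went only weakly with the track level. Zone mean and track mean (both arrays) correlated with r = 0.06 and zone length with r = 0.21 over the 293 tracks. Tracks of zones under 5 kb (72 tracks) averaged 0.06 ± 0.40 (SD) in wild-type and -0.07 ± 0.39 in sap1-1. Those of zones of 20 kb or more (20 tracks) averaged 0.31 ± 0.24 and 0.10 ± 0.25, with lengths between these giving values between. Tracks of zones with a mean under 1.2 (36 tracks) had means of 0.08 ± 0.44 (wild-type) and -0.07 ± 0.44 (sap1-1). Those of zones at 1.6 or more (108 tracks) had 0.22 ± 0.32 and -0.02 ± 0.34. All these spreads overlap. Tracks beside low zones were the steeper ones, with mean slopes of -0.16 ± 0.09 per kb in wild-type and -0.14 ± 0.10 in sap1-1, against -0.10 ± 0.07 and -0.07 ± 0.11 beside high zones. The difference between the arrays in a track went with that in its zone (r = 0.48), as in the 3 lowest tracks above, and less with the difference in input (r = -0.16).

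Tracks that faced another zone had higher means, over fewer far tiles. Where the next zone edge lay within 20 kb (28 tracks) the means were 0.33 ± 0.28 in wild-type and 0.18 ± 0.30 in sap1-1. With the next edge farther away (265 tracks) they were 0.15 ± 0.34 and -0.05 ± 0.36. Since a tile went to the nearer zone, facing tracks hold fewer tiles at the far, low distances. At equal distance, over tracks of any length, wild-type stood at 0.33 in both groups at 2 to 3 kb. It stood at 0.14 (facing) and 0.10 (not facing) at 5 to 6 kb, and at 0.23 and -0.12 at 7 to 8 kb. Over all tracks facing a zone within 20 kb, wild-type stopped falling beyond 5 kb, with 0.14 at 5 to 6 kb and 0.23 at 7 to 8 kb, although only 26 tracks reached that far and the spreads of both groups overlap.

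By chromosome, the sap1-1 minus wild-type difference of the tracks was -0.27 ± 0.03 (SE, 129 tracks) on chromosome I, -0.19 ± 0.03 (104) on II and -0.06 ± 0.04 (60) on III. Of these tracks 100, 77 and 39 were lower in sap1-1. Of single track tiles 61.0%, 57.3% and 52.9% were lower, beside 50.5%, 48.2% and 39.4% of the arm tiles beyond 10 kb. Wild-type track means were the same on all 3 (0.17), so the spread came from sap1-1, at -0.10, -0.03 and 0.12. DNA beyond 10 kb from any zone moved the same way, by -0.09, -0.003 and 0.17. Relative to it the track tiles differed by -0.18, -0.19 and -0.24, so the order of the chromosomes was not kept once their own level was taken away.

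**Figure D5:**
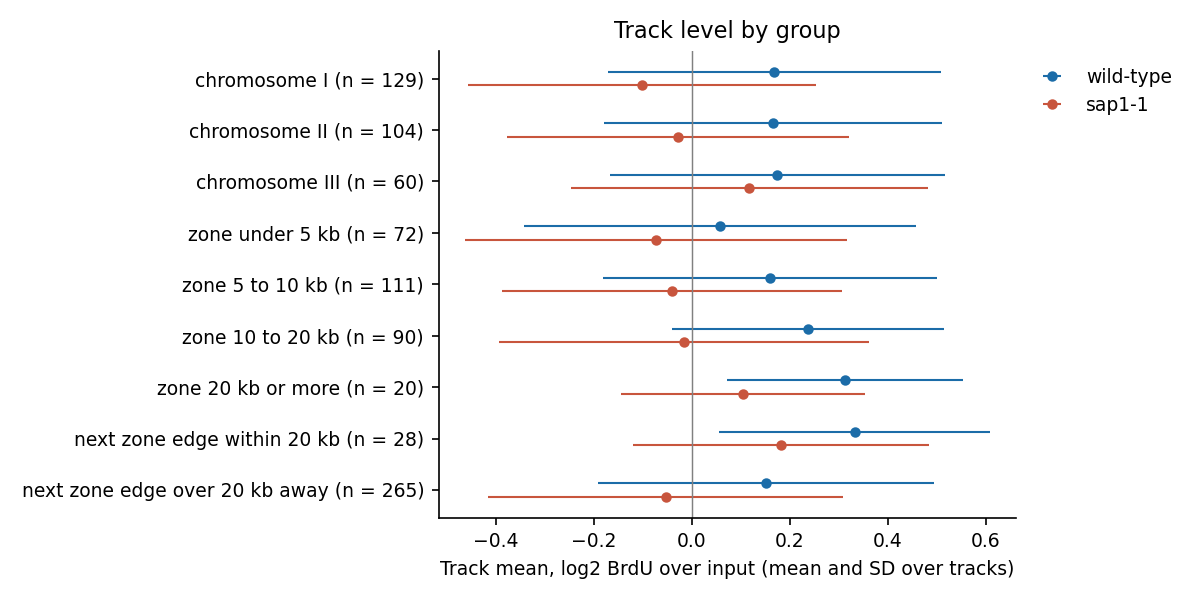
Track means (log2 BrdU over input, mean and SD over tracks) by chromosome, length of the zone and distance to the next zone edge, for tracks of at least 20 tiles, with the number of tracks beside each label. Wild-type was the higher array in all 9 groups and the bars overlap in each, most closely on chromosome III (0.17 and 0.12).

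Most track DNA was coding. Tiles in protein-coding genes made up 82.3% of the tracks (7707 tiles) and averaged 0.13 in wild-type and -0.10 in sap1-1. Intergenic tiles (1661) averaged 0.50 and 0.40. This gap went with base composition, since tiles under 30% GC averaged 0.80 and 0.77 and tiles of 42% or more -0.26 and -0.57. After subtraction of each array's running mean on GC, coding tiles stood at 0.25 and 0.01 and intergenic ones at 0.22 and 0.08. The difference between the arrays grew from -0.03 in the lowest GC class to -0.31 in the highest, and from -0.11 to -0.25 after the GC step. Between genes, convergent intervals (106 tiles, where 2 genes end) stood at 0.75 and 0.60, divergent ones (681 tiles, which hold promoters) at 0.41 and 0.36, and tandem ones (874 tiles) at 0.54 and 0.41. After the GC step the wild-type values of these 3 kinds ran from 0.19 to 0.25 and the sap1-1 values from 0.04 to 0.09, nearly level.

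The direction of transcription made little difference. Tiles in genes read away from the zone, with the fork (3534), averaged 0.15 ± 0.75 in wild-type and -0.11 ± 1.06 in sap1-1. Tiles in genes read toward it, against the fork (3625), averaged 0.09 ± 0.73 and -0.11 ± 1.03.

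Elements known to slow forks were looked at by the step across them, the mean 300 to 2000 bp on the far side minus that on the near side. Because profiles fall, the step averaged -0.33 ± 0.59 (SD) in wild-type and -0.27 ± 0.91 in sap1-1 over every track tile, and it was negative at 71.7% and 61.9% of them. These values are what an element has to be read against. The tRNA genes, short RNA polymerase III genes that can stall forks, had 16 of their 109 arm members in tracks. Their step was -0.54 ± 0.54 in wild-type and -0.80 ± 0.82 in sap1-1, negative at 15 and 13 of the 16. With the mean profile at each distance taken away it was -0.30 and -0.65, negative at 11 and 12, beside 48.9% and 48.4% of all track tiles. With 1500 bp on each side the sap1-1 step was -0.90 and with 3000 bp -0.50, and the wild-type step -0.48 and -0.49. Over every track tile it was -0.22 and -0.35 in sap1-1 at these 2 widths, and -0.26 and -0.42 in wild-type. With 3000 bp the tRNA step was negative at 13 (wild-type) and 11 (sap1-1) of the 16 genes, beside 79.4% and 66.8% of all track tiles. The excess over other track DNA was thus small at this width in wild-type and in the shares of both arrays.

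By strand, tRNA genes read against the fork (7) had a step of -0.39 in wild-type and -1.09 in sap1-1, and those read with it (9) -0.66 and -0.57. The SDs of these groups ran from 0.52 to 1.02, so the values of the arrays overlap. The 5 most extreme steps were all on chromosome III. They were at SPCTRNAASN.06 (tile 1702800; -0.95 in wild-type and -2.36 in sap1-1), SPCTRNAASN.05 (947100; -1.35 and -1.42), SPCTRNAARG.09 (925800; -0.84 and -1.80), SPCTRNATHR.10 (1362000; -1.63 and -0.92) and SPCTRNASER.08 (847500; -0.71 and -1.17). Each of these 5 fell on both arrays, which their choice on the mean step of both arrays favours. At the tRNA genes themselves the level was 0.80 in wild-type and 0.41 in sap1-1, which is 0.64 and 0.47 above the mean profile at their distances. All intergenic track tiles stood 0.31 and 0.40 above it, and GC content was not taken out of these levels. Of the 16 genes 9 were lower in sap1-1, beside 58.1% of track tiles.

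The 5S rRNA genes, also transcribed by RNA polymerase III, had 10 of 33 arm members in tracks, with steps of -0.63 ± 0.44 in wild-type and -0.36 ± 0.78 in sap1-1. After removal of the profile they were -0.27 and -0.01. They carried high BrdU at the gene, at 1.04 and 1.14 without GC correction, beside 0.50 and 0.40 over all intergenic track tiles. At SPRRNA.26 (chromosome III, tile 926100) sap1-1 stood at 2.52 and wild-type at 1.10. SPRRNA.06 shares its tile with SPCTRNAASN.06, so their steps of -0.82 and -1.54 (5S) are not separate from those of that tRNA gene. The tile of SPRRNA.26 lies next to that of SPCTRNAARG.09 (925800) in the same track, so the steps of these genes overlap as well.

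LTRs, which Sap1 is known to bind, had mean steps near those of other track DNA. Of 178 arm LTRs 48 lay in tracks and 37 had tiles on both sides, with steps of -0.31 ± 0.88 in wild-type and -0.36 ± 1.10 in sap1-1, or -0.0006 and -0.11 after removal of the profile. Of the 37, 22 were negative in wild-type (59.5%) and 21 in sap1-1 (56.8%), below the shares of all track tiles, but after removal of the profile 19 (51.4%) and 21 (56.8%) were, above them. The median step was -0.23 in wild-type and -0.75 in sap1-1, beside -0.33 and -0.25 over all track tiles. With 1500 bp on each side the mean step was -0.35 in wild-type and -0.57 in sap1-1, beside -0.26 and -0.22 over all track tiles. With 3000 bp it was -0.44 and -0.40, beside -0.42 and -0.35. At the LTRs the level was 0.73 and 0.62, above the profile by 0.48 and 0.59 without GC correction. All intergenic track tiles were above it by 0.31 and 0.40. Of the 48 LTRs 26 were lower in sap1-1, beside 58.1% of track tiles. The largest drops were beside Tf2-8, at tiles 5195700 and 5196000 of chromosome I (-2.66 and -2.45 in wild-type, -1.56 and -1.24 in sap1-1), which is the track from Tf2-8 to cid1. Other drops were at chromosome I 3439200 (-1.41 and -2.26) and chromosome II 1121400 (-1.02 and -2.29), and an LTR on chromosome III (1739400) had a rise of 1.23 and 1.98. Of the 10 Tf2 elements on the arms 3 reached into tracks, at 1.44 and 1.46. Many copies share sequence, so probes there can read several copies at once.

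Ribosomal protein genes, among the most transcribed, had 40 of 122 arm members in tracks. Their steps were -0.40 ± 0.57 in wild-type and -0.43 ± 0.96 in sap1-1, or 0.01 and -0.09 after removal of the profile. At the genes the level was -0.06 and -0.34, which is 0.30 and 0.36 below the profile without GC correction. Relative to the profile, all coding track tiles stood at -0.07 and -0.09 and track tiles of 42% GC or more at -0.48 and -0.56. The 20 read with the fork had means of -0.07 ± 0.53 (wild-type) and -0.60 ± 0.72 (sap1-1), and 17 of them were lower in sap1-1. The 20 read against it averaged -0.05 ± 0.44 and -0.08 ± 0.64, with 11 lower. Of all track tiles in genes read with the fork 60.4% were lower in sap1-1, and of those read against it 58.1%. The difference between these 2 sets was not tested. The 3 largest drops over both arrays were at rpl1802 (chromosome I, tile 1286700; -0.82 and -2.34), rpl15 (chromosome III, 2100900; -1.12 and -1.94) and rpl2701 (chromosome II, 2781900; -1.30 and -1.34). The snRNA and snoRNA genes (17 of 68) had steps of -0.09 ± 0.72 and 0.13 ± 0.61, or 0.16 and 0.29 after removal of the profile. These last were negative at 5 of 17 genes in wild-type (29.4%) and 4 in sap1-1 (23.5%), beside 48.9% and 48.4% of all track tiles. The levels at the genes were 0.54 and 0.19.

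Convergent and divergent intervals as whole elements had steps near those of all track tiles, with levels above the profile before any GC correction. The step across 113 convergent intervals was -0.40 in wild-type and -0.34 in sap1-1, and across 231 divergent ones -0.31 and -0.19. The level at convergent intervals was 0.43 (wild-type) and 0.48 (sap1-1) above the profile, and at divergent ones 0.16 and 0.22 above it. All intergenic track tiles stood 0.31 and 0.40 above it, and track tiles under 30% GC 0.59 and 0.76. The extremes were a rise of 1.93 and 3.02 between SPBC16E9.15 and lsd90 (chromosome II, 1949700) and drops of 2.80 and 2.64 on the log2 scale between Tf2-8 and pyp2. Next in size were drops between pup3 and SPCC63.13 (chromosome III, 860700; -1.30 and -2.41), in the steep prp28 track, and between bye1 and sti1 (chromosome III, 1262100; -1.06 and -2.56).

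Of 43 replication and histone genes on a list of their own, 41 had tiles on the arms used here and 8 reached into tracks. Another 5, rif1 among them again, had tiles in zones, and 29 had all their arm tiles beyond 10 kb. In tracks, cdc45, which encodes a part of the replicative helicase, averaged -0.56 ± 0.31 (SD over 6 tiles) in wild-type and -1.96 ± 1.29 in sap1-1. The gene of the DNA polymerase alpha subunit pol1 (17 tiles) stood at -0.50 and -1.10, and sap1 itself (7 tiles, chromosome III, 561600 to 563400) at 0.41 ± 0.57 and 0.10 ± 0.98. The polymerase delta gene cdc6 (16 tiles) stood at -0.18 and -0.31, and the helicase gene mcm5 (13 tiles) at -0.03 and 0.01. Higher in sap1-1 were cdm1, another polymerase delta subunit (2 tiles; -0.84 and 0.34), rif1, which holds back origin firing (2 tiles; 0.29 and 1.06), and rfc1 of the clamp loader (5 tiles; -0.60 and -0.40). With mcm5 that makes 4 of 8 higher and 4 lower. Tiles at sap1 measure DNA, not expression, and bear no mark of the sap1-1 allele.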

How the data were processed

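Per the labels, Cy5 carried BrdU-immunoprecipitated and Cy3 whole-cell extract DNA, amplified by random-primed PCR. Agilent Feature Extraction 10.7.3.1 made the processed signals, per the file headers, deposited as intensity values per spot with background subtracted and dyes scaled. The deposited log10 ratio is Cy5 over Cy3 and equalled that of the processed intensities to within 3.91e-07. Of 41551 non-control probes, 12 flagged ones were left out, and 41240 chromosome tiles remained. Ratios were converted to log2 and centred on each array's median (the deposited values are not centred), with no loess. Median signals were 1059 (Cy3) and 920.4 (Cy5) in wild-type and 916 and 878 in sap1-1. The number of arrays, 1 per strain, limits the precision.

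Coordinates are those of the tile names, and their genome build was not given in the sources used here. Genes came from RefSeq ASM294v3, placed by 1 offset per arm (-1800 to 4350 bp) at which reference GC best followed input (r = 0.53 to 0.59), so a gene is placed to about 1 tile. The slope of the mean profile from 3 kb outwards was checked on simulated data, in which the noise of neighbouring tiles was independent. Slopes of single tracks and the profile nearer than 3 kb were not checked in this way. Named tracks, of at least 20 tiles, were the extremes of difference, mean, slope and left minus right. One track that this rule names is not reported here. Named elements were the 5 largest steps of a class. The rule, members and lists were chosen with earlier results of these data known. Python 3.11.15, numpy 2.4.6, pandas 2.3.3, R 4.3.3 and limma 3.58.1 (normexp and loess alternatives) were used.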

Additional observations from a re-analysis of the deposited data

How the results depend on the processing

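No test was possible with 1 array per strain. No paired analysis was possible because each strain has 1 array and no result comes from a test. Results were recomputed with each array centred on the mode, normexp background correction, within-array loess, GC correction, a mean input, no repeated sequence, zone windows of 1.5 or 3.5 kb, a zone threshold lower or higher by 0.25, zones of at least 5 kb, zones from 1 array, no facing zone within 20 kb and medians over tiles, and, chosen after seeing the data, from 3 kb outwards, with complete tracks only and with smoothing over all tiles. The share of tracks lower in sap1-1 stayed between 67.2% and 97.7%. The share of arm windows to set beside it was taken in the main setting only (60.8%). The 97.7% came with the mode, which lay at -0.475 in wild-type and 0.125 in sap1-1. Centring on it lowered the difference at every tile, so that share says nothing of the tracks in particular. In each of these settings the profiles fell on both arrays and less steeply in sap1-1. The track mean in wild-type was 0.52 with the mode, 0.31 with GC correction, 0.12 and 0.26 with the 1.5 and 3.5 kb windows, -0.0187 and 0.44 at the lower and higher threshold, 0.27 for long zones, 0.11 and 0.26 with zones from wild-type or sap1-1 alone, 0.15 with no facing zone and 0.0528 from 3 kb. In sap1-1 it was -0.28 with the mode, 0.0691 with loess, 0.0747 with GC correction, -0.0947 and 0.0388 with the windows, -0.22 and 0.18 with the thresholds, 0.0407 for long zones, -0.10 and 0.0466 with zones from 1 array, 0.0640 as a median and -0.12 from 3 kb. The wild-type drop from 1 to 10 kb was 0.95 with the mode, 0.93 with loess, 0.84 and 1.12 with the windows, 0.94 and 1.13 with the thresholds and 0.965 for long zones. The sap1-1 drop was 0.80 with the mode and at the lower threshold, 0.75 with loess, 0.57 with the 1.5 kb window and 0.74 with wild-type zones. The wild-type slope per kb was -0.11 with the mode and with normexp, -0.0914 with loess, and -0.10 and -0.13 with the thresholds, and the sap1-1 slope -0.0593 with loess and -0.0678 at the lower threshold. The difference between the arrays was -0.81 with the mode, -0.15 with loess, -0.26 at the higher threshold, -0.17 as a median and -0.17 from 3 kb. Relative to the DNA beyond 10 kb it was -0.25 with loess, -0.23 at the higher threshold and -0.25 with wild-type zones. Against the zones its sign turned with loess (-0.0139), at the higher threshold (-0.0009) and with sap1-1 zones (-0.0783). It was 0.0097 with the 1.5 kb window and 0.14 with wild-type zones. The cause of these moves was not tested. The first bin at or below 0 was at 5 and 9 kb in wild-type with the lower and higher threshold and was not reached with the mode. In sap1-1 it was at 6 kb with GC correction, 5 kb with the 1.5 kb window and from 3 kb outwards, and 7 kb at the higher threshold.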
